A study of Mus musculus with 6 samples.

Results

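The probes described here carry names that begin with humanlincRNA, a number and a + or - sign, on a mouse lncRNA array. They were chosen by their signal: a probe was taken where the scanner software marked it as well above background on 3 or more of the 6 arrays. This held for 244 of the 1104 humanlincRNA probes (22.1%), and for 32336 of all 60915 probes outside the controls (53.1%). The arrays measured liver RNA of untreated C57/BL6 mice, all labelled male, from fetuses at embryonic day 18 and from adults at 2 months, with 3 arrays per stage. By the design text the 3 samples of a stage are independent experiments. Whether fetal livers were pooled is not stated in the labels, so p-values measure only the spread between these samples. The design asks which long non-coding RNAs differ in level between the stages.

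Long intergenic non-coding RNAs (lincRNAs) are transcripts that lie between protein-coding genes and are not translated into known proteins. Some act in the nucleus on chromatin or transcription and others in the cytoplasm, and many are restricted to few tissues and present at low levels. Between late gestation and adulthood the liver loses its role as a site of blood formation and gains much of its metabolic function. The files give no gene, position or sequence for a humanlincRNA probe and do not say what the prefix stands for. Each probe is therefore known by its name alone. The sign is taken as the strand it targets.

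The tissue label could be checked against 1 listed cell type marker only, because the other 29 of 30 have no named probe. Tfrc, the transferrin receptor through which developing red cells take up iron, gave 8.21, 8.20 and 7.95 on the fetal and 4.73, 4.49 and 4.26 on the adult arrays, each in the order of replicates 1 to 3. It was higher in fetal liver by 3.62 on the log2 scale (limma adjusted p = 1.8e-04). In whole liver, fewer cells of a type and less RNA per cell cannot be told apart. A level here is log2 of a probe's processed signal minus the 75th percentile of that signal on its array, so a level of 0 lies at the 75th percentile. Probes bind with different strength, so a level is compared between arrays and not between probes.

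For many of these probes fetal array 1 was far from its 2 replicates, and results that rest on it are given with and without it. It lay at least 2 log2 units from both other fetal arrays in 44 of the 244 probes (18%), against 3113 of 32250 tested probes that have all 6 values (9.65%). The same distance was reached by fetal array 2 or 3 in 0 members each, and by adult arrays 1, 2 and 3 in 4, 2 and 2. The negative-control probe MM9NEGATIVE008 had a median signal of 193 on fetal array 1, with 20 of its 20 spots well above background, and of 2.47 to 5.53 on the other arrays. Adult array 3 and fetal array 1 shared 1 scan, and the other 4 arrays shared another. Both stages lie in both scans.

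A smaller share of the 1104 humanlincRNA probes than of all probes gave signal well above background. On no array was the signal well above background for 693 of them (62.8%), against 33.4% of all probes. On all 6 arrays it was so for 131 (11.9%), against 37.5% of all probes. The probes named mouselincRNA had like shares, with 64.1% seen on no array and 12.3% on all 6. Those named MM9LINCRNAEXON were seen more often, with 48.2% on no array and 24.1% on all 6. These shares come from the flag that chose the members and are given with no test. The software's flag for a positive and significant signal was set for more probes. It held for 40.9% to 53.6% of the humanlincRNA probes per array, against 67.5% to 79.6% of all probes.

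The 3 fetal arrays detected 231, 299 and 231 humanlincRNA probes, which is 20.9%, 27.1% and 20.9% of them. The adult arrays detected 220, 197 and 255, which is 19.9%, 17.8% and 23.1%. The stages overlapped, at 23.0% ± 3.56 in fetal and 20.3% ± 2.65 in adult liver (SD, n = 3 each). Over all probes the shares were 53.3% ± 6.60 and 48.7% ± 3.19, so the fetal mean was above the adult mean there too. The 75th percentile of signal was highest on fetal array 2, at 153.8, and was 70.3 to 115.7 on the others. Its part in the higher share on fetal array 2 was not tested.

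Near the threshold of the rule the signals were close to background. The 49 probes seen on exactly 3 arrays had a median signal of 13.9, and the 43 seen on exactly 2 arrays had one of 9.79. The lowest signal marked well above background was 12.4 to 17.9 on the 6 arrays. Of the 49 probes just inside, 14 were seen on the fetal arrays alone and 9 on the adult arrays alone. Another 124 probes were seen on a single array, most often on fetal array 2 (35), fetal array 1 (30) or adult array 3 (25). These were left out by the rule.

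Between the stages, 37 of the 244 humanlincRNA probes changed (15.2%), against a background of 26% among all 32336 tested probes. A change is a difference of at least 2-fold with a limma adjusted p under 0.05, adjusted over all tested probes. In fetal liver 17 were higher (6.97%, background 11.3%) and 20 lower (8.20%, background 14.8%). The share of members that changed was thus below that of all tested probes in both directions. Of the 37 changed members 16 were well above background on all arrays of 1 stage and on none of the other, so that they entered through the stage where they were high. Over all tested probes this held for 1549 of the 8418 that changed. Of the probes seen in 1 stage alone, 16 of 23 members and 1549 of 1839 tested probes (84.2%) changed. Among the members seen on all 6 arrays 12 of 131 changed (9.16%, background 22.4%), 7 higher and 5 lower. Among the mouselincRNA and MM9LINCRNAEXON probes 25.8% of 159 and 22.6% of 31 changed.

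The fetal and adult values did not overlap in 88 members (36.1%), against a background of 47.6%, with the fetal arrays above in 39 and below in 49. At an unadjusted p under 0.05 there were 71 members (29.1%), against 40.5%. The fold changes lay on both sides of 0, with 127 above and 117 below, a median of 0.04 and a range from -4.64 to 6.14 on the log2 scale (all tested probes, median -0.06). The median absolute difference was 0.61 for the members and 0.73 for all tested probes. The members also varied more between arrays of a stage, with a median SD of 0.56 in fetal and 0.41 in adult liver, against 0.49 and 0.32 over all tested probes. The median width of the 95% interval of a fold change was 2.00 log2 units, against 1.72. For 33 members (13.5%) that interval stayed within 2-fold in either direction, and for 174 that were not called it reached past 2-fold, so that neither a change nor its absence can be given for these.

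The number of changed members depended on the arrays used. Without fetal array 1, 57 changed (23.4%, background 31%), 25 higher and 32 lower. With the scan as a block in the fit 59 changed (24.2%, background 31.3%), 31 higher and 28 lower. Of the 37 changed members, 36 changed the same way without fetal array 1 and 37 with the scan block. All 37 had the same sign in both scans, and in 33 the difference reached 2-fold with that sign in each. The 37 were chosen by their difference over these same arrays, and 1 scan holds 1 array per stage. The counts by scan are thus a description and no separate support. When each of the 6 arrays was left out in turn 21 kept the call every time. Of these, 8 were seen in adult liver alone and 3 in fetal liver alone, and so entered through their high stage. Among members seen on all 6 arrays, 3 of the 7 higher and 1 of the 5 lower kept the call every time. Normexp, a background correction that compresses low signals, kept 12 of the 37.

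Among members seen on all 6 arrays, 7 were higher in fetal liver. The largest change was that of humanlincRNA0970-_P1, at 4.48, 2.11 and 2.59 in fetal and -1.30, -1.17 and -1.80 in adult liver, again in replicate order. The stages were well apart, and fetal array 1 was the highest. It was 22.4-fold higher in fetal liver (log2 4.48, SE 0.62, limma adjusted p = 0.0028), and by 3.77 on the log2 scale without fetal array 1.

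The probe humanlincRNA2266-_P1 had levels of 7.12, 3.73 and 3.99 in fetal and -0.32, 0.43 and 1.71 in adult liver. Fetal array 1 was more than 3 log2 units above both other fetal arrays, and the stages did not overlap. Its difference was 4.34 on the log2 scale (SE 0.98, limma adjusted p = 0.0189), 3.25 without fetal array 1 and 4.94 without fetal array 2. The call was lost without adult array 1 or 2, with limma adjusted p of 0.0675 and 0.0682. The probes humanlincRNA0644-_P1 and humanlincRNA0931+_P1 followed the same course over the 6 arrays. The former was at 6.33, 3.06 and 2.65 in fetal and -0.19, 0.56 and 1.59 in adult liver, and the latter at 7.81, 4.96 and 4.98 and at 1.93, 3.02 and 3.79. In all 3 probes fetal array 1 was the highest array and adult array 1 the lowest.

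Both of the last-named probes were close to the threshold. The difference of humanlincRNA0644-_P1 was 3.36 (SE 1.01, limma adjusted p = 0.0487) and went to 2.20 without fetal array 1 and 4.04 without fetal array 3. That of humanlincRNA0931+_P1 was 3.0 (SE 0.87, limma adjusted p = 0.0438) and went to 2.06 without fetal array 1. The former call was lost without fetal array 2 or any adult array, at limma adjusted p from 0.0553 to 0.143. The latter was lost without fetal array 3 or any adult array, at 0.0581 to 0.131. Both passed without fetal array 1, at limma adjusted p of 0.0189 and 0.0257.

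The remaining 3 higher probes had smaller differences and tighter arrays. The probe humanlincRNA1151+_P1 was at 1.07, 0.13 and 0.00 in fetal and -2.56, -1.94 and -2.22 in adult liver, a 6.25-fold difference (log2 2.64, SE 0.37, limma adjusted p = 0.0028). The probe humanlincRNA1606-_P1 was at 0.37, -0.46 and -0.19 against -2.09, -1.85 and -1.45, a 3.25-fold difference (log2 1.70, SE 0.32, limma adjusted p = 0.0098). Both calls held without any single array, but with normexp the difference of humanlincRNA1606-_P1 fell to 0.71, under 2-fold. The probe humanlincRNA1211+_P1 was the only one of the 7 with fetal array 1 lowest, at 2.65, 3.41 and 3.48 against 1.95, 2.24 and 1.65. It was 2.35-fold higher (log2 1.23, SE 0.33, limma adjusted p = 0.0328), and the call was lost without any array other than fetal array 1 (limma adjusted p from 0.0666 to 0.114).

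The 5 members lower in fetal liver and seen on all 6 arrays all carry the + sign. The probe humanlincRNA1166+_P1 had levels of 0.03, 0.41 and 0.11 on the fetal and 3.33, 2.42 and 3.37 on the adult arrays. The fetal values were within 0.4 of each other, and every adult value lay above them. It was 7.25-fold lower in fetal liver (log2 -2.86, SE 0.34, limma adjusted p = 0.0015), and the call held without any single array and with normexp.

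The probe humanlincRNA1114+_P1 was at -0.25, -1.61 and -0.72 in fetal and 1.01, 0.87 and 1.67 in adult liver, 4.12-fold lower (log2 -2.04, SE 0.42, limma adjusted p = 0.0137). Leaving out adult array 3 ended this call (limma adjusted p = 0.0568), and it held with normexp. The other 3 were lower by about 2 to 3-fold and rested on several arrays. The probe humanlincRNA0284+_P1 was at -1.84, -1.29 and -1.19 against 0.21, 0.18 and -0.34 (log2 -1.45, SE 0.30, limma adjusted p = 0.0137). It was lost without adult array 1 or 2, at limma adjusted p of 0.0554 and 0.0617.

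The probe humanlincRNA2242+_P1 was at 0.02, -0.04 and -0.57 against 0.90, 1.13 and 0.95 (log2 -1.19, SE 0.27, limma adjusted p = 0.018). It was lost without fetal array 3 or any adult array (limma adjusted p from 0.0544 to 0.0765). The probe humanlincRNA0077+_P1 was at -0.47, -1.08 and -1.24 against 0.12, -0.17 and 0.39 (log2 -1.04, SE 0.31, limma adjusted p = 0.0475), and was lost without any array other than fetal array 1 (0.0847 to 0.151). The stages did not overlap in any of these 3 probes, but with normexp all 3 differed by less than 2-fold.

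Some members passed the rule through a single stage, so that a difference in their level is part of how they were chosen. In fetal liver alone 14 were seen, on all 3 fetal arrays and on no adult array, and in adult liver alone 9. They are described here with no test. Their dim stage is not well above background, so their fold is a lower bound: the mean of the bright stage against, per dim array, the higher of the probe's own signal and the lowest signal marked well above background. The bound reached 2-fold for 7 of the 14 and 6 of the 9. Without fetal array 1 it did so for 3 of the 14 and 8 of the 9.

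Among those seen in fetal liver alone, humanlincRNA2433-_P1 was at 2.81, -0.89 and -0.34 on the fetal and -5.02, -4.51 and -4.00 on the adult arrays. Fetal array 1 carried the highest value. The fetal level was at least 8.25-fold higher, and at least 3.74-fold without fetal array 1. The probe humanlincRNA0075+_P1 was at 0.51, -1.24 and -0.41 against -5.02, -2.63 and -4.26, at least 4.40-fold higher. The probe humanlincRNA2010-_P1 was at 0.11, -1.83 and -0.91 against -5.02, -3.50 and -2.72, at least 3.12-fold higher. Without fetal array 1 their bounds were at least 3.23-fold and at least 2.21-fold.

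The bounds of the remaining named probes were lower. The probe humanlincRNA0661-_P1, at 0.88, -2.91 and -2.38 against -5.02, -4.51 and -5.01, was at least 2.07-fold higher. Its bound rested on fetal array 1, since without it the other fetal arrays gave no fold above 1. The probe humanlincRNA1963-_P1, at -1.11, -2.53 and -1.27 against -5.02, -4.51 and -5.01, was at least 1.85-fold higher, and at least 1.54-fold without fetal array 1.

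The members seen in adult liver alone were tighter across the adult arrays. The probe humanlincRNA1364+_P1 was at -0.62, -0.72 and -0.48 on the adult and -4.79, -5.91 and -5.04 on the fetal arrays, at least 4.98-fold higher in adult liver. The probe humanlincRNA1939+_P1 was at -1.45, -1.08 and -0.59 against -4.79, -5.91 and -3.70, at least 3.69-fold higher in adult liver. The 3 adult values lay within 1 log2 unit in each of these probes.

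The probes humanlincRNA1148+_P1, humanlincRNA1297+_P1 and humanlincRNA0289+_P1 had bounds of at least 2.21-fold, 2.12-fold and 2.06-fold higher in adult liver. Their adult levels ran from -2.31 to -1.54, close to the lowest level marked well above background on those arrays (-2.69 to -2.19).

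A further 9 changed members were seen on some but not all arrays and fell in neither of these sets, 2 higher and 7 lower in fetal liver. The 4 named here were chosen after their values were seen. The probe humanlincRNA2316-_P1 had the largest fitted difference of all members, at 5.69, 2.18 and 3.41 in fetal and -4.03, -1.90 and -1.20 in adult liver. The difference was 6.14 on the log2 scale (SE 1.05, limma adjusted p = 0.0066), and the call held without any single array. It was well above background on 3 fetal and 2 adult arrays, and adult array 1, the lowest, was not among them, so the size of the fitted difference rests in part on a value in the background.

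The probe humanlincRNA0891+_P1 was also higher, at 1.79, 0.50 and 1.43 against -2.78, -1.98 and -2.03 (log2 3.50, SE 0.42, limma adjusted p = 0.0016). It was well above background on 3 fetal and 2 adult arrays. Adult array 1, the lowest, was not among them, so the size of this difference also rests in part on a value in the background. The probes humanlincRNA1172+_P1 and humanlincRNA1596+_P1 were lower in fetal liver, with differences of -3.57 (SE 0.27) and -2.95 (SE 0.28) on the log2 scale (limma adjusted p of 2.6e-04 and 6.1e-04). The former was at -2.63, -2.17 and -2.34 in fetal and 1.26, 0.89 and 1.43 in adult liver, and the latter at -3.26, -3.35 and -2.67 and at -0.21, -0.23 and 0.01. Both were well above background on 3 adult and 2 fetal arrays, without fetal array 1, so these sizes too rest in part on a value in the background. With normexp these 4 stayed called, and the other 5 of the 9, all lower in fetal liver, did not.

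The 5 members with the highest signals did not pass the test with all arrays and no block. The probe humanlincRNA0635+_P1 was at 10.30, 8.11 and 8.43 on the fetal and 6.60, 7.56 and 7.94 on the adult arrays. Its difference was 1.58 on the log2 scale (95% interval 0.03 to 3.13, limma adjusted p = 0.117), and 0.91 without fetal array 1. With the scan as a block it was called (limma adjusted p = 0.0249), at the same difference. The probes humanlincRNA1945-_P1 and humanlincRNA1382-_P1 had the same order of fetal arrays, at 9.49, 7.11 and 7.61 and at 9.37, 6.82 and 7.49. On the adult arrays they were at 5.81, 7.36 and 6.76 and at 5.58, 7.11 and 7.0. Their differences were 1.43 (-0.23 to 3.09) and 1.34 (-0.42 to 3.09), and 0.72 and 0.60 without fetal array 1. In all 3 fetal array 1 was the highest array and adult array 1 the lowest.

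Other bright members were steady. The probe humanlincRNA2438+_P1 was at 7.08, 6.92 and 7.06 against 6.78, 6.87 and 6.66, a difference of 0.25 (-0.29 to 0.79). The probe humanlincRNA2397+_P1 was at 6.33, 6.57 and 6.63 against 6.47, 6.37 and 5.63, a difference of 0.35 (-0.38 to 1.08). The first interval leaves out a 2-fold difference, and the second reaches slightly past it.

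The 3 members with the narrowest reach of the interval from 0 were humanlincRNA1739+_P1, humanlincRNA2354-_P1 and humanlincRNA2199+_P1. The first was at 5.32, 5.41 and 5.16 in fetal and 5.56, 5.22 and 5.25 in adult liver, a difference of -0.05 (-0.62 to 0.53). The second was at -0.93, -1.31 and -1.21 against -1.36, -0.89 and -1.25, a difference of 0.02 (-0.60 to 0.63). For the third it was 0.00 (-0.67 to 0.67). For these probes the interval leaves out a 2-fold difference in either direction.

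The course seen in several bright probes, with fetal array 1 high and adult array 1 low, held for more members. Fetal array 1 was at least 2 log2 units above both other fetal arrays in 36 members and below both in 8. In the 36, it was a median of 2.94 above the mean of the other fetal arrays, and adult array 1 was the lowest adult array in 31. Among the 199 members in neither set adult array 1 was lowest in 96. The same 2 sets of all tested probes gave 1360 of 1823 and 10449 of 29137. Adult array 3, which shared its scan with fetal array 1, was the highest adult array in 22 of the 36 and 96 of the 199. Over all tested probes it was the highest in 1064 of 1823 and 7950 of 29137. The sets were chosen from these values, so the counts are a description with no test.

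In the 36 members, adult array 1 lay a median of 1.32 below the mean of the other adult arrays, against 0.14 below in the 199. Within these 36, fetal arrays 2 and 3 were a median of 0.88 above the adult arrays, and 7 were called higher and 0 lower with all arrays. Without fetal array 1, 11 were called higher and 3 lower. Of the 1823 tested probes with fetal array 1 as far above, whatever the order of the adult arrays, 372 were called higher and 64 lower. Without fetal array 1 these were 582 and 237. Of the 36, 23 were seen on all 6 arrays and 15 carry the + sign. The probe humanlincRNA0324-_P1, chosen after its values were seen, had fetal array 1 high without adult array 1 low. It was at 7.55 on fetal array 1, 4.51 and 4.49 on the other fetal arrays, and 6.49, 6.49 and 6.14 on the adult arrays. The parts of the scan, of the negative control's signal on fetal array 1 and of the sample itself in these values were not tested.

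Both strand signs were about equally common among the probes and the members. Of 549 probes with a + sign 131 were members (23.9%), and of 555 with a - sign 113 (20.4%). Of the 22 changed + probes 6 were higher and 16 lower in fetal liver, and of the 15 changed - probes 11 were higher and 4 lower. Among the changed + probes, 2 of the higher and 6 of the lower were seen in a single stage alone. Among the changed - probes this held for 6 of the higher and 2 of the lower. Such probes entered through the stage where they were high, so their direction is in part built in. Over the members seen on all 6 arrays, 3 + probes were higher and 5 lower, and 4 - probes were higher and 0 lower. The median fold change was -0.03 for + and 0.18 for - members on the log2 scale. The split was noticed in the data and is given with no test.

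The counts by sign moved with the setting. Under each setting more + probes were lower than higher, and more - probes higher than lower. The settings share the same arrays and members, so this is no separate support. Settings that test the members seen in a single stage share their built-in direction too. Quantile normalization gave 6 higher and 16 lower + probes and 11 higher and 5 lower - probes. Without fetal array 1 the + probes were 11 higher and 22 lower and the - probes 14 higher and 10 lower, and with the scan block 14 and 21, and 17 and 7. With normexp 4 + probes were higher and 5 lower, and 4 - probes higher and 0 lower. Among the mouselincRNA probes the changed + probes were 7 higher and 15 lower and the - probes 7 higher and 12 lower. Among the MM9LINCRNAEXON probes the + probes were 2 higher and 4 lower and the - probes 0 higher and 1 lower. Of all tested probes, not split by sign, 11.3% were higher and 14.8% lower.

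Every humanlincRNA name ends in _P1, so no number has several probes for 1 strand, and agreement could be read only between the + and the - probe of a number. Such probes target opposite strands and need not measure the same transcript. Of 547 numbers with both signs, both probes were members for 29, the + probe alone for 101, the - probe alone for 83, and neither for 334. For 184 of these numbers a single strand thus passed the rule.

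In the 29 pairs the probes had the same sign of change in 14. In 6 pairs 1 probe changed and in 0 both did, and 0 pairs were called in opposite directions. Their fold changes had Pearson's r of 0.0038 and Spearman's rho of 0.052 across the 29 pairs, given as a description since both probes come from the same arrays. The differences between the members of a pair were at most 1 log2 unit in 17 and over 2 in 6, with a median of 0.83. Leaving out fetal array 1 brought the pairs with the same sign to 20.

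In 4 of the 29 pairs the fold changes of the 2 probes differed by limma on the within-array difference, adjusted over 53 pairs of lincRNA-named probes (16 of the 53 differed). In 2 of the 4, numbers 1364 and 0289, the + probe had passed the rule through adult liver alone. A difference from the - probe is then in part built in, so their place in this count is no support. How many of the 16 entered in this way was not counted. In number 2316 the - probe was higher in fetal liver by 6.14, as given above, and the + probe was at -2.74, -2.91 and -3.35 in fetal and -2.60, -2.06 and -2.69 in adult liver. The difference of + minus - was -6.68 (SE 1.07, limma adjusted p = 0.007), and rests on the same adult value in the background. In number 0891 the + probe was higher by 3.50 and the - probe differed by 0.50 (interval -0.67 to 1.67), with a difference of 3.01 (SE 0.63, limma adjusted p = 0.018). This difference too rests in part on adult values in the background. In both numbers the probe that did not pass the test was above background on 3 of the 6 arrays.

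Number 1364 had a + probe seen in adult liver alone and a - probe seen on all 6 arrays. The - probe was at 2.53, 2.64 and 2.97 in fetal and 2.75, 2.70 and 1.76 in adult liver, a difference of 0.31 (-0.52 to 1.14). The fitted difference of + minus - was -4.95. Number 0289 had a like pattern, with a + probe seen in adult liver alone and a - probe that differed by 0.78 (-0.46 to 2.01). Its difference was -3.60. The + probes of both numbers are not well above background in fetal liver, so these fitted sizes are not bounds, and they carry no test because the + probes entered through adult liver.

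Where both probes were seen on all 6 arrays, which held for 8 pairs, 5 had the same sign of change. By the limma test of the difference 0 differed, also at an unadjusted p under 0.05. Their differences ran from 0.23 to 1.69 log2 units. The largest was that of number 1016, whose + probe differed by -0.46 and - probe by 1.23 (difference -1.69, interval -3.41 to 0.04). In number 0459 the + probe was at 1.69, 0.44 and 1.0 in fetal and 0.04, 0.35 and 0.68 in adult liver. Its - probe was at 8.10, 4.85 and 5.23 and at 3.07, 3.73 and 4.70, with fetal array 1 again the highest and adult array 1 the lowest in both probes. They differed between the stages by 0.69 and 2.23 (limma adjusted p of 0.228 and 0.113). With the scan as a block the - probe was called (limma adjusted p = 0.0118).

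In number 2397 the stage differences were 0.35 for the + and 0.12 for the - probe, and in number 2438 0.25 and -0.65. They were 0.42 and 0.08 in number 2246, and 0.21 and -0.72 in number 2163. The intervals of + minus - were -0.98 to 1.44, -0.47 to 2.25, -1.61 to 2.28 and -0.25 to 2.31, in this order of numbers. Each reaches past 2-fold, so neither agreement nor disagreement of the 2 probes can be given. The + probe of number 2163 has no value on fetal array 3, where its spot was marked as an outlier, so its fit rests on 5 arrays. In number 1396 neither probe passed the test, with differences of -0.64 and -1.16 (limma adjusted p of 0.183 and 0.0654). In number 1211 the + probe passed the test, as given above, and the - probe differed by 0.89 (-0.42 to 2.19), in the same direction.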

How the data were processed

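Ribosomal RNA was removed before random-primed amplification and Cy3 labelling, per the labels' protocols, and an Arraystar mouse lncRNA array from Agilent was read in 1 colour. The deposited scanner files hold linear intensity per spot from Agilent Feature Extraction 11.0.1.1 (mm9 in the file headers). The processed signal is background-subtracted and unscaled between arrays, per the file headers. The authors' deposited series table holds log2 values of 17307 probes, which matched quantile-normalized processed signals (r of at least 0.999 per array, medians 5.94 to 6.11). It was used as an alternative.

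Levels were log2 of the processed signal less the 75th percentile of its array, without control, negative-control and outlier spots. No spot was saturated. The 32336 probes well above background on at least 3 arrays were tested two-sided with limma's lmFit and eBayes (limma 3.58.1, R 4.3.3). Benjamini-Hochberg adjustment was over all of them. The procedure was checked on simulated data with independent noise per probe and array. That check does not cover an array that stands apart from its replicates, or arrays that share a scan. The number of arrays limits the precision. A probe changed at an adjusted p under 0.05 and 2-fold, and differences are fetal minus adult.

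Alternatives were quantile normalization, normexp (offset 50, on median signals, since the files hold no mean signal), the deposited table, the percentile over probes detected on all arrays, stricter and no filters, the scan as a block, scan 1 alone, the replicate block, array weights, the design text's filter and each array left out. The files identify a shared scan, which was used as the batch. Named were changed members with the largest differences on all 6 arrays (up to 8 each way) and with the largest bounds (up to 5 each way), the 5 brightest, the 3 steadiest and the 8 brightest pairs. The members and lists were chosen with earlier results of these data known.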

Additional observations from a re-analysis of the deposited data

Results flagged for a closer look

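The negative-control probe MM9NEGATIVE008, which enters no comparison, had a median signal of 193 on fetal array 1, with 20 of 20 spots well above background. On the other fetal arrays its median was 5.53 and 2.55, and on the adult arrays 3.57, 3.08 and 2.47, with 1 spot well above background on adult array 3 and 0 on each of the others. It was singled out because a control probe gave signal on an array that also stood apart for 44 of the 244 humanlincRNA probes. Its part in those values was not tested.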

How the results depend on the processing

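The main settings called 37 members, 17 higher and 20 lower in fetal liver. Normexp called 13 (8 higher, 5 lower), and the filter on all 6 arrays 12 (7 higher, 5 lower), which tests only 131 members. Array weights called 64 (29 higher, 35 lower) and the scan block 59 (31 higher). Leaving out 1 array gave 25 to 57 calls, 10 to 25 higher and 15 to 32 lower. The higher calls fell to 10 without each of adult arrays 1, 2 and 3, and the lower calls rose to 32 without fetal array 1. The other settings stayed within 1.5 times: quantile normalization (38), the deposited table (37), the percentile over probes detected on all arrays (37), no filter (31), scan 1 alone (47) and the design text's filter (40). Except for the smaller number of members under the strict filter, the cause of these shifts was not tested. Shares over all tested probes are given above only for the main fit, the fit without fetal array 1 and the scan block. The counts of the other settings, here and below, therefore cannot be read as a trait of the humanlincRNA probes. Scan 2 alone was not run, since it has 1 array per stage.

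The replicate block called 22 members (7 higher). Deviations of same-numbered samples from their stage means had correlations of -0.53, -0.35 and -0.31 over 32250 probes. Those of unlike-numbered samples ran from -0.49 to 0.65. Deviations from a mean of 3 arrays depend on each other, so these correlations cannot settle whether the numbers pair the samples. No result reversed. Of the 22 named probes with a call, 3 kept it under all 17 alternatives, and humanlincRNA1364+_P1 kept it under each one except the filter on all 6 arrays, which leaves it out. Pairs with the same sign numbered 14 of 29, 5 of the 8 seen on all 6 arrays, and 14 to 20 with 1 array left out. With the software's flag for a positive and significant signal the detection shares differed by 3.41 percentage points between the stages, against 2.69. Low signal limits many members: 113 of the 244 were not well above background on every array.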
